A study of Homo sapiens with 12 samples.

Results

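miR-100, miR-99a, let-7c and miR-125b are small RNAs cut from a pair of related clusters, on chromosomes 11 and 21, and they were measured here in vesicles that cancer cell lines released into their medium. The 5 members were taken by name from the 1636 mature miRNAs of the count table: miR-100-5p, miR-99a-5p, let-7c-5p, miR-125b-5p and miR-125b-2-3p. All 5 passed the filter on low counts, which kept 318 miRNAs, and together they held 84990 of 3141138 counts (2.71%). Vesicles came from 6 lines labelled CRC (colorectal cancer), with no treatment or genetic change named in the labels, MDST8, Car-1, Hutu80, HT55, SW1116 and RCM-1, with 2 libraries for each line and 12 in all. All lines grew in the same medium with fetal bovine serum, and bovine miRNAs of identical sequence would be counted with the human ones. HuTu 80 is known as a line from the duodenum. The series describes subtypes of lines, but the labels do not tie a line to a subtype, so none were compared. Nothing in the labels says if replicates were separate cultures, so each p-value here measures the spread between libraries, and that spread may be technical.

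A miRNA is cut from a hairpin in a longer transcript, and its seed (bases 2 to 8) largely decides which messages it represses. The clusters on chromosomes 11 and 21 are copies of one ancestral cluster, each with a miR-99/100, a let-7 and a miR-125 hairpin inside a long non-coding host gene. miR-99/100 is known for repressing mTOR signalling, let-7 for repressing RAS, LIN28 and HMGA2, and miR-125 for repressing regulators of apoptosis and differentiation. In colorectal cancer cells, miR-100 and miR-125b from the chromosome 11 host gene MIR100HG are known for a role in resistance to the antibody cetuximab. The comparison addressed here was whether the products of the 2 loci were at different levels in vesicles of different lines.

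In the GENCODE release 29 annotation of GRCh38, the chromosome 11 cluster lies on the minus strand, with MIR100 at chr11:122152229-122152308, MIRLET7A2 at chr11:122146522-122146593 and MIR125B1 at chr11:122099757-122099844, all within MIR100HG (chr11:122028327-122556721). The chromosome 21 cluster lies on the plus strand, with MIR99A at chr21:16539089-16539169, MIRLET7C at chr21:16539828-16539911 and MIR125B2 at chr21:16590237-16590325, all within MIR99AHG (chr21:15928296-16645065). No annotated host transcript has an exon over any of these 6 hairpins, so all 6 are intronic. The order is the same at both loci, with 658 bases between MIR99A and MIRLET7C, 5635 between MIR100 and MIRLET7A2, and 50325 and 46677 bases from the let-7 hairpin to the miR-125b hairpin on chromosomes 21 and 11.

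The mature sequences below, from RefSeq (GRCh38.p14), show which locus each product can be traced to. Capitals mark the seed.
hsa-miR-100-5p: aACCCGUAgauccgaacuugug
hsa-miR-99a-5p: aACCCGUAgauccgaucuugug
hsa-let-7c-5p: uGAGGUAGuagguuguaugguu
hsa-let-7a-5p: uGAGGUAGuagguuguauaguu
hsa-miR-125b-5p: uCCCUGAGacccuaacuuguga
hsa-miR-125b-1-3p: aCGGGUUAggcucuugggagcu
hsa-miR-125b-2-3p: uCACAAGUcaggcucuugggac
miR-100-5p comes only from chromosome 11, and miR-99a-5p, let-7c-5p and miR-125b-2-3p only from chromosome 21. miR-125b-5p has the same 22 bases at both loci, so its counts cannot be assigned to either. The other arm tells the miR-125b hairpins apart, since miR-125b-1-3p comes from chromosome 11 and miR-125b-2-3p from chromosome 21. let-7a-5p, the let-7 of the chromosome 11 cluster, also comes from hairpins on chromosomes 9 and 22.

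The sequences of the closest pairs follow with the differing base in capitals.
hsa-miR-100-5p: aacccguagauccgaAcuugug
hsa-miR-99a-5p: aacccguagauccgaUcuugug
hsa-let-7a-5p: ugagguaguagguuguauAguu
hsa-let-7c-5p: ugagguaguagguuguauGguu
Counted from the 5′ end, miR-99a-5p differs from miR-100-5p by A16U and let-7c-5p from let-7a-5p by A19G, each 1 base of 22. A read with an error at that base could be counted for the other miRNA. As a share of the more abundant partner, the miR-99a-5p count was between 3.42% and 86.0% of the miR-100-5p count over the 12 libraries, and the let-7c-5p count between 3.00% and 22.5% of the let-7a-5p count. The part of such errors in the counts was not tested.

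Library totals ran from 71831 counts (Hutu80 replicate 1) to 622800 (SW1116 replicate 1). Levels are given as scaled CPM, CPM being counts scaled to a common library total, here with trimmed-mean (TMM) scaling, and are compared between lines for 1 miRNA at a time, since capture differs between sequences. All 6 listed miRNAs of gut epithelium had counts in every line, and their summed scaled CPM was 87601 to 132065 in HT55, SW1116 and RCM-1, 16085 to 28570 in Car-1, 8638 to 10118 in Hutu80 and 4076 to 5480 in MDST8. Most of this sum was miR-200c-3p, with line means of 80071 to 91988 in the 3 high lines and 3592 to 20079 in the others. The sum therefore mainly reflects that miRNA, and the listed miRNAs did not all follow it. For miR-375-3p, SW1116 had a mean of 1333, against 5913 for HT55 and 7049 for RCM-1. Members other than let-7c-5p were on the whole high where the sum was low. let-7c-5p had its lowest mean in Car-1 (1926), below SW1116 (4825) and RCM-1 (4140). The relation was not tested. The summed level of 8 blood and serum miRNAs was 5593 to 6067 in HT55, 3920 to 4569 in Car-1, 3574 to 4448 in Hutu80, 2537 to 3420 in RCM-1, 1706 to 2470 in SW1116 and 1797 to 2265 in MDST8, with miR-144-3p at 0 in MDST8, SW1116 and RCM-1. The largest part of this sum was miR-486-5p, with line means from 1318 in MDST8 to 4413 in HT55. The listed miRNAs did not all follow the sum, since miR-150-5p had its highest mean in RCM-1 (649). A list of 7 stromal and muscle miRNAs summed to between 294 and 909 in all libraries, with miR-214-3p at 0 in HT55, Car-1, MDST8 and Hutu80.

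Summed, the members took a larger share of the vesicle miRNA counts in 3 of the lines. They made up 6.68% and 8.92% of the counts in the MDST8 libraries, 4.89% and 4.20% in Car-1 and 2.81% and 3.65% in Hutu80, but 0.793% and 0.998% in HT55, 0.701% and 0.628% in SW1116 and 0.874% and 0.757% in RCM-1. Every library of the first 3 lines was above every library of the other 3. Most of the summed share was miR-100-5p in MDST8 (6.26% of counts on average) and Car-1 (3.40%). By line means, let-7c-5p alone did not follow the sum, at 0.278% in Car-1 against 0.327% in SW1116 and 0.373% in RCM-1. All 5 members differed among the 6 lines in edgeR's quasi-likelihood F-test (adjusted p between 1.99e-12 for miR-100-5p and 0.000208 for let-7c-5p), in a series where 68.2% of the 318 tested miRNAs did so. The median distance between the highest and the lowest line was 3.87 on the log2 scale for the members and 2.36 for all tested miRNAs.

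**Figure D1:**
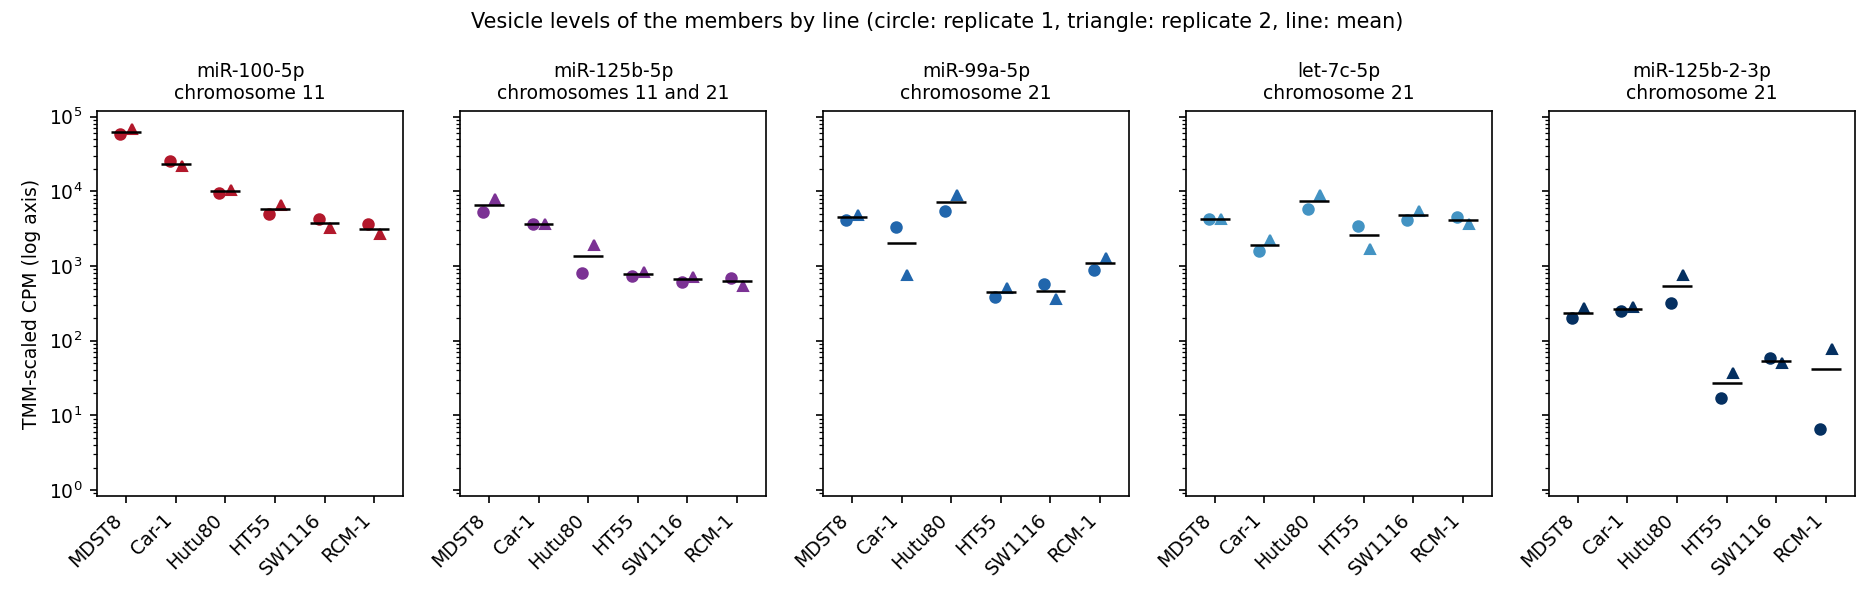
TMM-scaled CPM (log axis) of each member in the 2 libraries of each line, with the mean as a bar. miR-100-5p and miR-125b-5p stepped down from MDST8 to Car-1 and the other lines, miR-125b-2-3p and miR-99a-5p had their highest means in Hutu80, and let-7c-5p spanned the narrowest range.

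miR-100-5p, the chromosome 11 member of the miR-99/100 family, had more counts than any other member in every line apart from SW1116 and RCM-1, where let-7c-5p had more, and its level spanned the widest range of the 5 members. Its scaled CPM was 57938 and 68501 in MDST8, 25327 and 21848 in Car-1, 9649 and 10278 in Hutu80, 4959 and 6478 in HT55, 4273 and 3193 in SW1116 and 3661 and 2676 in RCM-1. Both MDST8 libraries were above the other 10, both Car-1 libraries came next, and only HT55, SW1116 and RCM-1 lay near one another. The highest and lowest line means of log2 scaled CPM (2 counts added) were 20.1-fold apart, and the p-value across lines ranked 6 of 318. MDST8 was 1.42 ± 0.28 (SE) above Car-1 on the log2 scale (adjusted p = 0.000288), Car-1 was 1.24 ± 0.28 above Hutu80 (0.00239) and Hutu80 was 0.80 ± 0.28 above HT55 (0.0307), all in edgeR's test with Benjamini-Hochberg adjustment. The last of these steps held in only 5 of 20 alternative settings. HT55 against SW1116 (0.124) and SW1116 against RCM-1 (0.712) did not pass. Of the 15 pairs of lines, 13 passed for miR-100-5p. Of these, HT55 against RCM-1 (adjusted p = 0.0452 in edgeR's test) held in 13 of 20 settings.

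miR-125b-5p, which both loci encode, followed the same order of lines. Its scaled CPM was 5319 and 7876 in MDST8, 3689 and 3682 in Car-1, 796 and 1942 in Hutu80, 736 and 834 in HT55, 616 and 712 in SW1116 and 697 and 548 in RCM-1. The MDST8 and Car-1 libraries stood above all others, the Hutu80 libraries overlapped with those of HT55, both HT55 libraries were above those of SW1116 and RCM-1, and the last 2 lines overlapped. MDST8 was 0.84 ± 0.34 above Car-1 on the log2 scale (adjusted p = 0.0487 in edgeR's test), a call that held in 15 of 20 settings, and Car-1 was 1.42 ± 0.35 above Hutu80 (0.00446), a call that was lost without Hutu80 replicate 1. No pair of neighbours below Car-1 passed, the smallest adjusted p being 0.087 for Hutu80 against HT55. In all, 11 of 15 pairs passed. Of these, Hutu80 against SW1116 held in 12 of 20 settings and changed sign in 1.

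miR-99a-5p, the chromosome 21 counterpart of miR-100-5p, had another order. Its scaled CPM was 5462 and 8839 in Hutu80, 4180 and 4777 in MDST8, 3337 and 747 in Car-1, 879 and 1294 in RCM-1, 576 and 362 in SW1116 and 389 and 505 in HT55. Both Hutu80 libraries were above the other 10, both MDST8 libraries came next, and the Car-1 libraries lay far apart. No pair of neighbours in this order passed edgeR's test (adjusted p between 0.0733 for MDST8 against Car-1 and 0.945 for SW1116 against HT55), while 9 of 15 pairs did. The highest and lowest lines were 15.4-fold apart. The Car-1 libraries differed by 2.15 on the log2 scale for miR-99a-5p, a difference that ranked 10 of 318 miRNAs in that line, where the median was 0.455. For miR-125b-5p the same libraries differed by 0.003.

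let-7c-5p, whose hairpin is the neighbour of MIR99A, spanned the narrowest range of the 5 members. Its scaled CPM was 5767 and 8931 in Hutu80, 4195 and 5454 in SW1116, 4224 and 4266 in MDST8, 4566 and 3713 in RCM-1, 3427 and 1705 in HT55 and 1600 and 2252 in Car-1. Both Hutu80 libraries were above the other 10, SW1116, MDST8 and RCM-1 overlapped, and HT55 overlapped with Car-1. The highest and lowest line differed by 3.77-fold, and no pair of neighbours passed (adjusted p between 0.128 and 0.959 in edgeR's test). Of the 15 pairs, 8 passed. Of these calls, MDST8 against Hutu80 held in only 3 of 20 alternative settings, Hutu80 against RCM-1 in 5 and HT55 against SW1116 in 14. The other calls held in at least 16.

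miR-125b-2-3p, the other arm of the chromosome 21 miR-125b hairpin, was the least abundant member and split the lines into a high and a low set. Its scaled CPM was 316 and 762 in Hutu80, 247 and 279 in Car-1, 199 and 272 in MDST8, 57.9 and 50.0 in SW1116, 6.51 and 76.6 in RCM-1 and 17.3 and 37.1 in HT55. The 6 libraries of Hutu80, Car-1 and MDST8 were above the 6 of the other lines. MDST8, the lowest of the high lines, was 2.11 ± 0.60 above SW1116, the highest of the low ones, on the log2 scale (adjusted p = 0.0066 in edgeR's test), a call that was lost without SW1116 replicate 2. No other neighbours passed (0.244 to 0.944), and 9 of 15 pairs did. The RCM-1 values rest on 1 and 26 counts and the HT55 values on 2 and 8. Over the 5 members, 50 of 75 comparisons of pairs passed, against 32.9% of such comparisons over all tested miRNAs.

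Each line was then set against the mean of the other 5. MDST8 had 4 of 5 members higher and none lower, where 22.0% of tested miRNAs were higher and 22.3% lower. miR-100-5p was 3.19 ± 0.18 higher on the log2 scale (adjusted p = 3.44e-13 in edgeR's test), miR-125b-5p 2.58 ± 0.22 (8.03e-10), miR-125b-2-3p 1.21 ± 0.42 (0.0204) and miR-99a-5p 1.81 ± 0.33 (0.000276). let-7c-5p did not pass (0.19 ± 0.24, adjusted p = 0.58). The call of miR-125b-2-3p was lost without MDST8 replicate 2 (0.124) and when limma-trend was run on the authors' log2 values (0.0896).

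Car-1 had 3 members higher and 1 lower, where 21.1% of tested miRNAs were higher and 13.5% lower. miR-125b-5p was 1.57 ± 0.24 higher on the log2 scale (adjusted p = 1.17e-05 in edgeR's test), miR-100-5p 1.48 ± 0.19 (1.59e-06) and miR-125b-2-3p 1.40 ± 0.42 (0.0115), the last without a call when Car-1 replicate 2 was left out (0.12). let-7c-5p fell by 1.18 ± 0.27 (0.00137) and lost this call with library totals as the only scaling (0.0803) and in limma-trend (0.0783). miR-99a-5p did not pass (0.45 ± 0.37, adjusted p = 0.379), but was called higher with library totals as the only scaling (0.0444). Its direction rested on a single library. With Car-1 replicate 1 alone it was called higher (0.00876), and with replicate 2 alone it was called lower (-0.98, adjusted p = 0.0465).

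Hutu80 had the 3 products of chromosome 21 higher and no member lower, where 23.0% of tested miRNAs were higher and 16.7% lower. miR-125b-2-3p was 2.65 ± 0.40 higher on the log2 scale (adjusted p = 8.16e-06 in edgeR's test), miR-99a-5p 2.62 ± 0.32 (5.61e-06) and let-7c-5p 1.14 ± 0.23 (0.000268). Both libraries of Hutu80 were outside the range of the other 10 for all 3. The chromosome 11 product miR-100-5p (-0.01 ± 0.22, adjusted p = 0.982) and miR-125b-5p (-0.13 ± 0.27, adjusted p = 0.754) did not pass. The call of let-7c-5p was lost without Hutu80 replicate 2 (0.261), and without that replicate miR-125b-5p was called lower (-1.18, adjusted p = 0.0167). let-7a-5p, which differs from let-7c-5p by 1 base, was lower in Hutu80 (-0.92 ± 0.26, adjusted p = 0.00669).

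HT55 and SW1116 had 4 members lower each and RCM-1 had 3, and none was higher in these lines. Of all tested miRNAs, 10.4% were lower and 13.8% higher in HT55, 16.7% lower and 17.6% higher in SW1116, and 14.8% lower and 21.1% higher in RCM-1. miR-100-5p fell by 0.97 ± 0.23 in HT55 (adjusted p = 0.00263 in edgeR's test), by 1.71 ± 0.24 in SW1116 (5.69e-06) and by 1.99 ± 0.25 in RCM-1 (9.17e-07). miR-125b-5p fell by 1.10 ± 0.29 in HT55 (0.00572), by 1.40 ± 0.29 in SW1116 (0.000586) and by 1.52 ± 0.30 in RCM-1 (0.000327). miR-99a-5p fell by 2.16 ± 0.46 in HT55 (0.00214) and by 2.09 ± 0.45 in SW1116 (0.00179), and was at -0.63 ± 0.40 in RCM-1 without passing (0.226). miR-125b-2-3p fell by 2.38 ± 0.63 in HT55 (0.00558), by 1.33 ± 0.51 in SW1116 (0.0475) and by 1.55 ± 0.54 in RCM-1 (0.0278). let-7c-5p passed in none of these lines (adjusted p of 0.0593 for HT55, 0.213 for SW1116 and 0.687 for RCM-1). In HT55, however, let-7c-5p was called lower in 10 of 20 alternative settings, with adjusted p from 0.0081 to 0.903 over all 20, and in SW1116 it was called higher without Car-1 replicate 2 (0.025). miR-99a-5p was called lower in RCM-1 without the same library (0.0186). Without HT55 replicate 1 no member kept its HT55 call (0.121 for miR-100-5p, 0.0948 for miR-125b-5p, 0.0742 for miR-125b-2-3p and 0.0788 for miR-99a-5p), and that of miR-125b-5p was lost also without HT55 replicate 2 (0.064), and that of miR-125b-2-3p also in limma-voom (0.0586). The SW1116 call of miR-125b-2-3p was lost in 11 of 20 settings and that of miR-99a-5p without SW1116 replicate 2 (0.0808). The RCM-1 call of miR-125b-2-3p was lost without RCM-1 replicate 1 (0.328) and without Hutu80 replicate 2 (0.0502). A fit without 1 library leaves that line with a lone library, assumed to vary like the other lines.

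**Figure D2:**
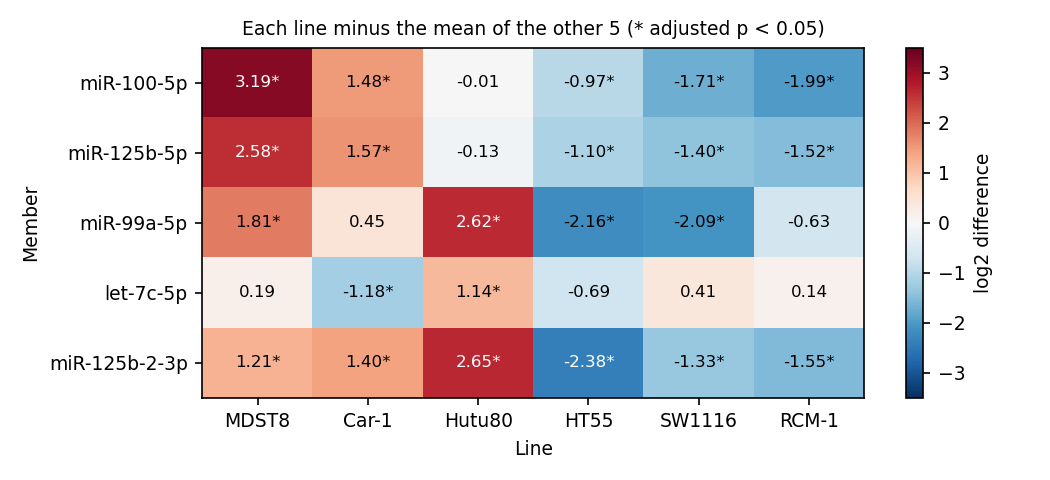
Log2 difference of each member (rows) between a line (columns) and the mean of the other 5 lines, with an asterisk where the adjusted p is under 0.05 in edgeR's test. The colours of miR-100-5p and miR-125b-5p run alike from MDST8 (3.19 and 2.58) to RCM-1 (-1.99 and -1.52), while Hutu80 is high for miR-99a-5p (2.62), let-7c-5p (1.14) and miR-125b-2-3p (2.65) and near 0 for the other members.

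The loci were compared inside each library through ratios of counts, which need no scaling between libraries (0.5 was added to each count). The ratio of miR-100-5p to miR-99a-5p sets chromosome 11 against chromosome 21. It was 13.9 and 14.3 in MDST8, 7.59 and 29.1 in Car-1, 1.77 and 1.16 in Hutu80, 12.6 and 12.8 in HT55, 7.40 and 8.78 in SW1116 and 4.15 and 2.07 in RCM-1. The Hutu80 libraries had the lowest ratios and the RCM-1 libraries the next lowest, and the Car-1 libraries lay on either side of those of MDST8 and HT55. The geometric means of lines ran from 14.9 in Car-1 to 1.43 in Hutu80, a 10.4-fold span. An exact permutation test over all 10395 ways to pair 12 libraries, one-sided for agreement within lines, gave p = 0.012 and, adjusted over the 6 ratios tested, 0.0719, so the difference among lines did not pass the threshold of 0.05. The smallest p this test can give is 9.62e-05. The Car-1 libraries lay furthest apart within a line in this ratio (SD 1.37 on the log2 scale). Leaving them out shrinks the sum of squared differences within lines that was tested. The adjusted p of 0.00635 without them is therefore no support for a difference. Over the settings that left out a whole line, changed the added count or used a replicate block, adjusted p ran from 0.00635 to 0.203.

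The level of miR-125b-5p varied less over lines relative to miR-100-5p than relative to miR-99a-5p, a difference that was not itself tested. The ratio of miR-125b-5p to miR-100-5p was 0.0918 and 0.115 in MDST8, 0.146 and 0.169 in Car-1, 0.0830 and 0.189 in Hutu80, 0.149 and 0.129 in HT55, 0.144 and 0.223 in SW1116 and 0.191 and 0.205 in RCM-1. Line means of this ratio spanned 1.93-fold, the narrowest of the 6 ratios, and did not pass the exact permutation test (p = 0.318, adjusted p = 0.318), which does not show that they were equal. The ratio of miR-125b-5p to miR-99a-5p was 1.27 and 1.65 in MDST8, 1.11 and 4.91 in Car-1, 0.147 and 0.220 in Hutu80, 1.88 and 1.65 in HT55, 1.07 and 1.96 in SW1116 and 0.793 and 0.424 in RCM-1. These line means spanned 13.0-fold, with Hutu80 lowest, and did not pass (exact permutation p = 0.024, adjusted p = 0.0719). Without the Car-1 libraries, again the furthest apart within a line, adjusted p was 0.036, which is no support for the same reason.

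The ratio of the chromosome 21 neighbours, let-7c-5p over miR-99a-5p was 1.01 and 0.893 in MDST8, 0.480 and 3.01 in Car-1, 1.06 and 1.01 in Hutu80, 8.71 and 3.37 in HT55, 7.27 and 15 in SW1116 and 5.18 and 2.87 in RCM-1. The ratio was near 1 in the lines with the most miR-99a-5p and above it in every library of HT55, SW1116 and RCM-1. The difference among lines did not pass (exact permutation p = 0.0561, adjusted p = 0.112). Without the Car-1 libraries, here too the furthest apart within a line, adjusted p was 0.036, which is no support for a difference. The ratio of miR-125b-2-3p to miR-99a-5p had line means from 0.0258 in RCM-1 to 0.167 in Car-1 and did not pass (exact permutation p = 0.193, adjusted p = 0.231).

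**Figure D3:**
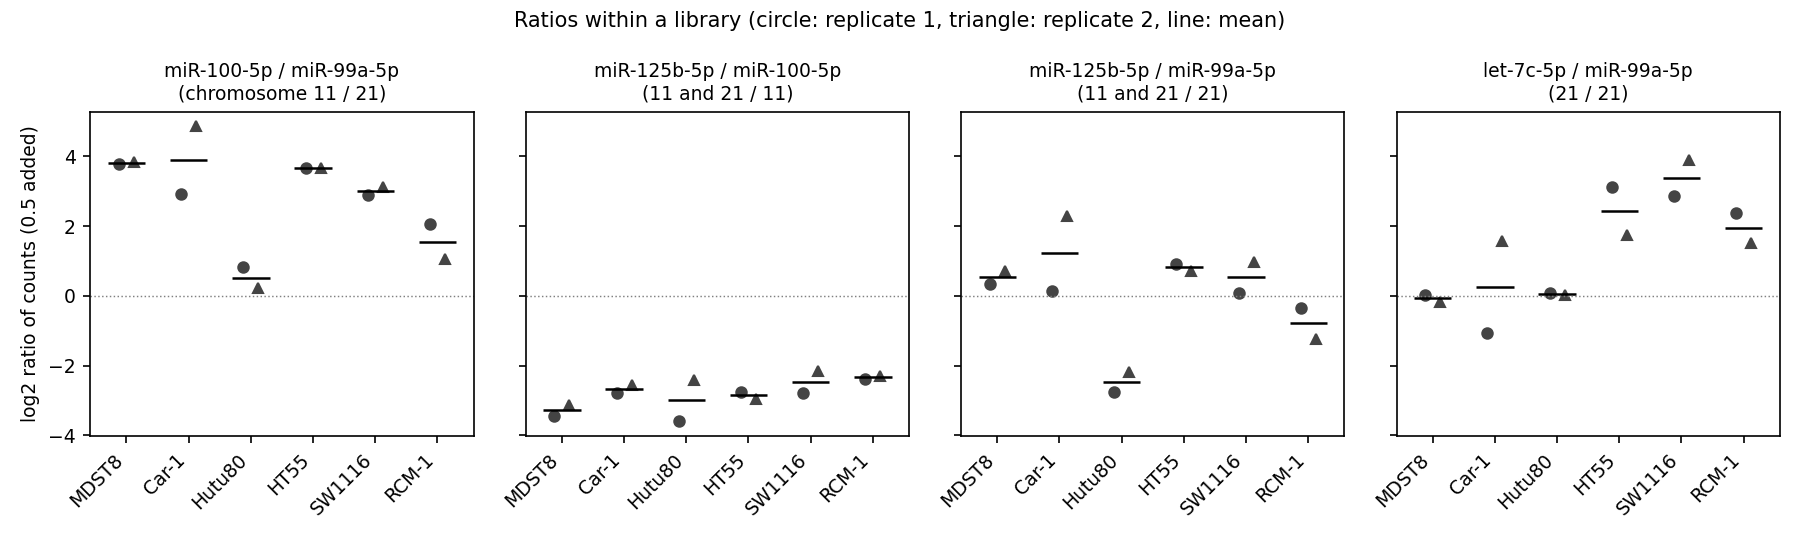
Log2 ratio of counts within each library (circle for replicate 1, triangle for replicate 2) with the mean of each line as a bar, for 4 of the 6 ratios. In both panels with miR-99a-5p below miR-100-5p or miR-125b-5p the Hutu80 libraries lie lowest and the Car-1 libraries far apart, for miR-125b-5p over miR-100-5p all line means lie between -3.28 and -2.34, and for let-7c-5p over miR-99a-5p HT55, SW1116 and RCM-1 lie above MDST8 and Hutu80.

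The 3p arms of miR-125b gave a direct but thin measure of the 2 loci. miR-125b-1-3p, from chromosome 11, had 29 and 26 counts in MDST8, 4 and 6 in Car-1, 0 and 11 in Hutu80, 1 and 4 in HT55, 2 and 0 in SW1116 and 1 and 2 in RCM-1. Per depth, it was at 91.8 and 81.4 scaled CPM in MDST8, against 0 and 92.1 in Hutu80 and at most 29.9 in the other lines, so Hutu80 replicate 2 was as high as MDST8. MDST8 was 2.76 ± 0.68 above the mean of the other 5 lines on the log2 scale (adjusted p = 0.00175 in edgeR's test), and against Hutu80 alone it did not pass (0.82 ± 0.99, adjusted p = 0.525). Its share of the counts of both 3p arms was 26.8% in MDST8 (55 of 205, exact 95% binomial interval 20.9% to 33.4%), 7.87% in Car-1 (10 of 127, 3.84% to 14.0%), 8.40% in Hutu80 (11 of 131, 4.27% to 14.5%), 33.3% in HT55 (5 of 15, 11.8% to 61.6%), 10.0% in RCM-1 (3 of 30, 2.11% to 26.5%) and 4.55% in SW1116 (2 of 44, 0.555% to 15.5%). The chromosome 21 arm had more counts in every line, and the MDST8 interval lay above those of Car-1, Hutu80 and SW1116. These shares pool the libraries of a line, and the intervals cover counting error only, not the spread between libraries. By library, the ratio of miR-125b-1-3p to miR-125b-2-3p (0.5 added to each count) was 0.0169 and 0.126 in Hutu80 and 1.0 and 0.0943 in RCM-1. Line means of this ratio spanned 12.2-fold, with an SD within lines of 1.40 on the log2 scale. The difference among lines did not pass the exact permutation test over libraries (p = 0.168, adjusted p = 0.231). With so few counts, that does not show that the lines were equal. The arms share no seed, and how much 3p arm each hairpin leaves per 5p arm was not measured, so the shares do not divide the miR-125b-5p counts.

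The remaining arms with a row in the count table were near absent. miR-100-3p, the other arm of the miR-100 hairpin, has no row there, so its level is not known. miR-99a-3p and let-7c-3p had 4 counts each over all libraries, against 6481 for miR-99a-5p and 11497 for let-7c-5p, and these counts were in Hutu80 and Car-1. let-7a-2-3p, the arm specific to the chromosome 11 let-7 hairpin, had 16 counts, all in MDST8 replicate 2. Over both libraries of a line, the limit that a count of 0 allows, taken as 3 counts, was 2.68 CPM in SW1116, the deepest line, and 17.4 CPM in Hutu80, the shallowest. let-7a-5p, with 214577 counts from 3 hairpins, was higher in SW1116 (1.08 ± 0.22 on the log2 scale, adjusted p = 5e-04 in edgeR's test) and lower in Hutu80.

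Within seed families the members stood beside products of a related cluster on chromosome 19, miR-99b, let-7e and miR-125a. Of the counts of the miR-99/100 family, miR-100-5p held 90.1% ± 0.63 in MDST8, 82.7% ± 5.33 in Car-1, 51.1% ± 6.03 in Hutu80, 47.2% ± 10.9 in SW1116, 82.5% ± 1.01 in HT55 and 68.2% ± 7.61 in RCM-1 (SD, n = 2 libraries each). miR-99a-5p held 35.8% ± 6.31 in Hutu80 and 24.0% ± 8.97 in RCM-1, and 5.94% to 6.68% on average in the other 4 lines. In SW1116 most of the rest was miR-99b-5p, at 46.9% ± 13.0. The family as a whole took 6.96% ± 1.42 of the library in MDST8, 4.13% ± 0.64 in Car-1 and 2.42% ± 0.27 in Hutu80, and 0.416% to 0.659% on average in the other lines. In the miR-125 family, miR-125b-5p held 81.5% ± 0.25 in MDST8, 71.8% ± 1.53 in Car-1, 65.6% ± 14.5 in Hutu80, 24.5% ± 8.73 in SW1116, 67.4% ± 3.15 in HT55 and 76.6% ± 0.53 in RCM-1, and miR-125a-5p held the rest. SW1116 was the single line where the chromosome 19 member had most of this family's counts.

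**Figure D4:**
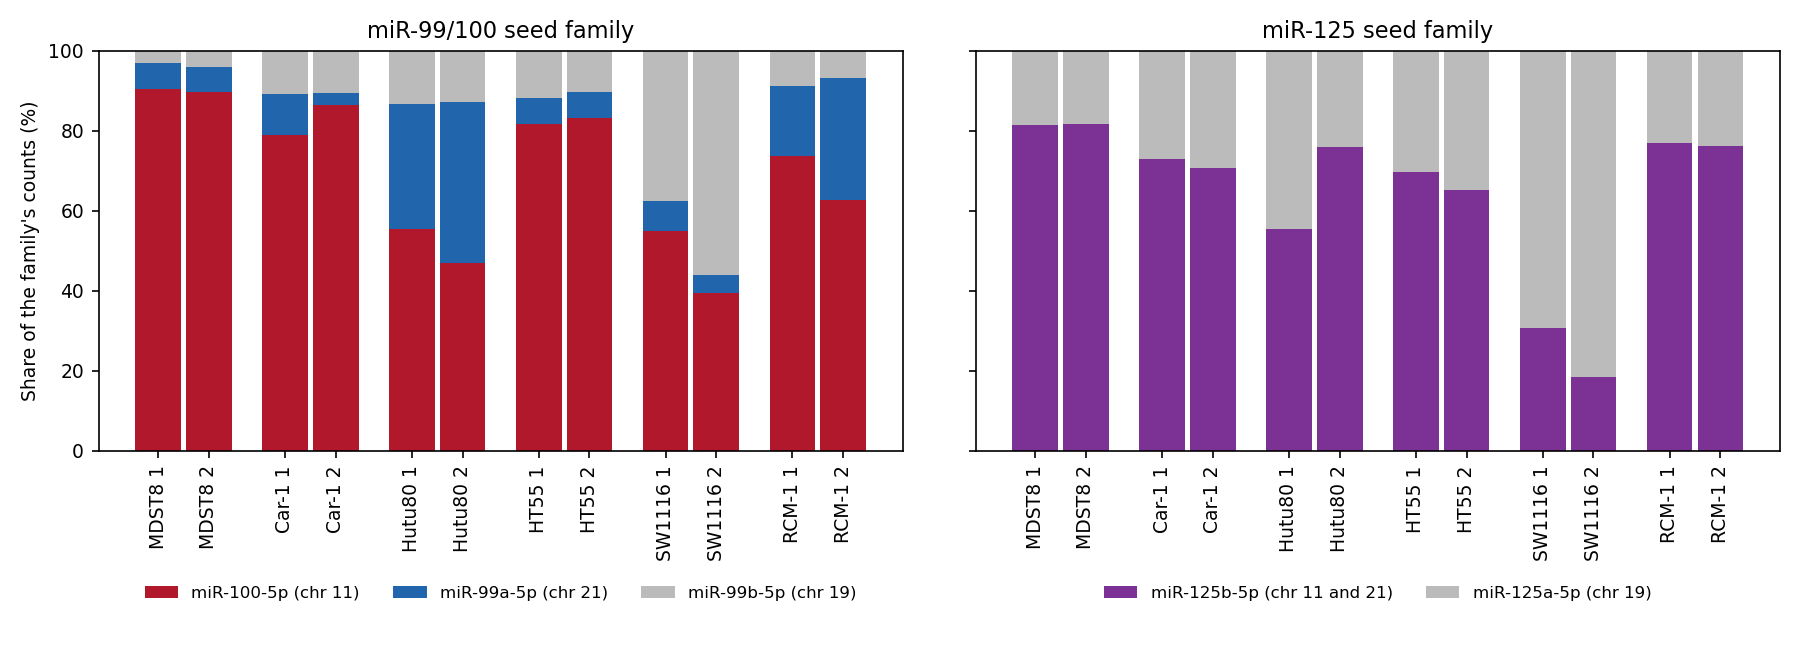
Share of the counts of the miR-99/100 family (left) and of the miR-125 family (right) held by each mature miRNA, 1 bar for each library. miR-100-5p holds the largest share of the first family in every library except SW1116 replicate 2 (82.5% to 90.1% on average in MDST8, Car-1 and HT55, 68.2% in RCM-1, 51.1% in Hutu80 and 47.2% in SW1116), miR-99a-5p is most visible in Hutu80 (35.8% on average), and miR-99b-5p and miR-125a-5p are largest in SW1116.

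let-7c-5p was a small part of the let-7 family, which took 15.6% to 23.0% of the counts of a line. It held 5.76% ± 1.30 of the family in Hutu80, 2.57% ± 0.26 in MDST8, 1.98% ± 0.04 in RCM-1, 1.47% ± 0.20 in Car-1, 1.42% ± 0.09 in SW1116 and 1.19% ± 0.20 in HT55 (SD, n = 2 libraries each). Its share was highest in Hutu80 in both libraries. Of the 9 let-7 family members, all tested, Hutu80 had 1 higher (let-7c-5p itself) and 2 lower, where 23.0% of all tested miRNAs were higher and 16.7% lower. SW1116 had 4 higher and none lower, where 17.6% were higher and 16.7% lower. MDST8 had 2 higher and 2 lower (22.0% and 22.3% of all tested miRNAs), Car-1 none higher and 2 lower (21.1% and 13.5%), and HT55 and RCM-1 had 1 higher and 2 lower each (13.8% and 10.4% in HT55, 21.1% and 14.8% in RCM-1). Of the 6 listed products of the chromosome 19 cluster, 4 were tested, and 4 of 4 were lower in HT55 and in RCM-1, where 10.4% and 14.8% of all tested miRNAs were lower. Of the same 4, 3 were higher in each of Car-1, MDST8 and SW1116 and 2 in Hutu80, where 21.1%, 22.0%, 17.6% and 23.0% of all tested miRNAs were higher. In SW1116 the chromosome 19 products miR-99b-5p (1.41, adjusted p = 2.81e-05) and miR-125a-5p (1.86, adjusted p = 2.35e-06 in edgeR's test) were higher, where miR-100-5p and miR-125b-5p were lower.

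The pattern over libraries set miR-100-5p beside miR-125b-5p. On log2 scaled CPM over the 12 libraries, which are 2 for each of 6 lines and share their scaling, Pearson's r was 0.97 between miR-100-5p and miR-125b-5p, 0.80 between miR-125b-2-3p and miR-99a-5p, 0.62 between miR-100-5p and miR-99a-5p, 0.36 between miR-99a-5p and let-7c-5p and -0.17 between miR-100-5p and let-7c-5p. For miR-125b-2-3p, r was also 0.64 with miR-100-5p, 0.64 with miR-125b-5p and 0.20 with let-7c-5p. For miR-125b-5p it was 0.57 with miR-99a-5p and -0.17 with let-7c-5p. All these values are descriptions and carry no test. The median over the 10 pairs of members was 0.60, and over all 50403 pairs of tested miRNAs it was -0.006. Among the 301 tested miRNAs outside these families and lists, those most like miR-100-5p were miR-129-5p (r = 0.95), miR-130a-3p (0.90) and miR-181a-3p (0.90), and those most like miR-125b-5p were miR-130a-3p (0.95), miR-129-5p (0.93) and miR-34c-5p (0.89). For miR-99a-5p they were miR-137-3p (0.89), miR-30c-5p (0.88) and miR-30a-5p (0.87), for miR-125b-2-3p miR-1275 (0.89), miR-30c-2-3p (0.87) and miR-30a-5p (0.87), and for let-7c-5p miR-378d (0.75), miR-629-5p (0.72) and miR-378e (0.70). Several of these had few counts, with mean scaled CPM of 13.3 for miR-34c-5p, 34.9 for miR-378d, 36.4 for miR-130a-3p and 53.1 for miR-129-5p. In Hutu80 replicate 1, the shallowest library, 3 counts were 41.8 CPM. The chromosome 21 products miR-125b-2-3p and miR-99a-5p had miR-30a-5p among their 3 nearest, but let-7c-5p, also from chromosome 21, did not. miR-100-5p and miR-125b-5p, the latter from both loci, shared miR-129-5p and miR-130a-3p.

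**Figure D5:**
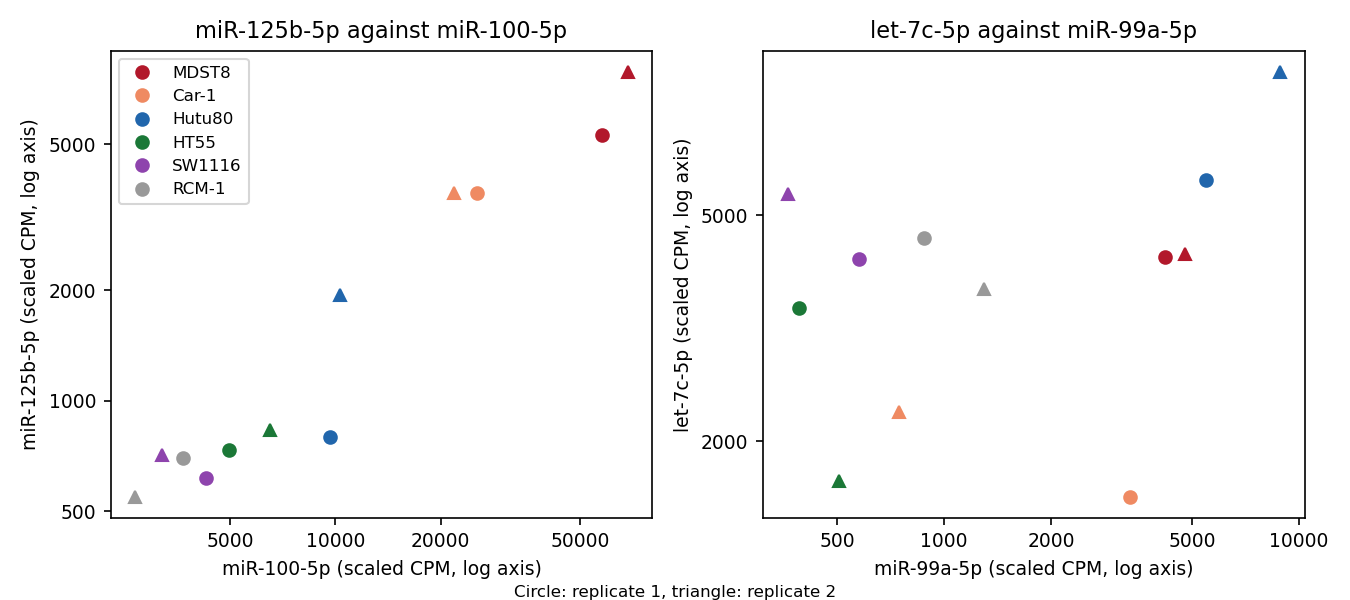
Scaled CPM (log axes) of miR-125b-5p against miR-100-5p (left) and of let-7c-5p against its genomic neighbour miR-99a-5p (right) in the 12 libraries, coloured by line. The left points fall along a line from RCM-1 to MDST8 (r = 0.97), while the right points scatter, with SW1116 high in let-7c-5p only and Car-1 replicate 1 low in it (r = 0.36).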

How the data were processed

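Vesicles were separated by ultrafiltration and size-exclusion chromatography, and libraries were made with IsoSeek, a low-input small RNA protocol with molecular identifiers, per the labels' protocols. Per the submitters' processing notes, hg38 was used. For the aligner, for the counter and for any collapsing of identifiers, the step is not given in the sources used here. The authors deposited whole-number counts of mature miRNAs, and log2 values that equal log2(CPM + 1) of those counts (largest difference 5e-14). The members, lists and tests were chosen with earlier results of these data known. Genes to name were the members, other products of both loci, the chromosome 19 cluster, the let-7 family and, for each member, the 3 miRNAs outside these with the highest Pearson r.

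Counts were filtered (filterByExpr by line, 318 miRNAs with 99.7% of counts), scaled by TMM (factors 0.642 to 1.46) and fitted in edgeR 4.0.16 (R 4.3.3; glmQLFit, robust, 1 mean per line, 12 libraries), with Benjamini-Hochberg adjustment per comparison and a threshold of 0.05. The alternatives included limma 3.58.1 and DESeq2 1.42.0. The fit was tested on simulated data. Replicates of a line differed by more than sampling noise (chi-square per degree of freedom 8.18 to 56.8), so none was merged.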

Additional observations from a re-analysis of the deposited data

How the results depend on the processing

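The 5 calls across lines held in all 20 settings: 12 that leave out a library and 8 of another kind (size factors, library totals, filters, DESeq2, limma and a replicate block). The counts of members higher in a line (10, between 9 and 11) and lower (12, between 9 and 13), of pair calls (50, between 43 and 50) and of miRNAs called across lines (217, between 204 and 258) stayed within 1.5 times. Of the single differences between a line and the others, 558 of 600 values kept their direction and side of the threshold or stayed without a call, 26 lost a call, 15 gained one and 1 turned round: miR-99a-5p in Car-1 was -0.98 without Car-1 replicate 1 and 0.95 without Car-1 replicate 2, against 0.45 with all libraries.

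The ratio tests changed most with Car-1, whose libraries differed most within a line in the ratios given next. Values without them are therefore no support for a difference among lines. With both of its libraries left out, adjusted p was 0.00635 for miR-100-5p to miR-99a-5p, 0.036 for let-7c-5p to miR-99a-5p and 0.036 for miR-125b-5p to miR-99a-5p. With single libraries left out it ran from 0.000577 to 0.151, from 0.0185 to 0.272 and from 0.00375 to 0.151 for these ratios, passing only without a Car-1 library. A replicate block gave 0.0424 for both ratios of miR-100-5p and miR-125b-5p to miR-99a-5p. The replicate numbers showed no clear pairing of the libraries. Deviations of same-numbered libraries correlated by -0.228 to 0.266 (median 0.062) over the 15 pairs of lines, with 5 above 0.1. Whether some same-numbered libraries shared a batch was not tested. The cause of the changes in the ratio tests was not tested either.

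With TMM scaling the median of all tested miRNAs was -0.32 in MDST8, -0.22 in SW1116 and -0.12 in RCM-1 on the log2 scale, and with library totals as the only scaling it was 0.64 in Car-1, 0.43 in Hutu80 and -0.88 in SW1116. Library totals turned the sign of 4 uncalled differences: miR-100-5p (0.34) and miR-125b-5p (0.20) in Hutu80, and let-7c-5p in SW1116 (-0.26) and RCM-1 (-0.03). Counts of 0 to 29 in a library limit what can be said of miR-125b-1-3p.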
